A study of Mus musculus with 12 samples.

Results

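The genes described here load peptides onto MHC class I and are 10 of the 55453 genes in a count table of mouse skin. They were chosen by symbol, with earlier results of these data known, and comprise the class I chains H2-K1, H2-D1 and B2m, the peptide transport and loading genes Tap1, Tap2 and Tapbp, the immunoproteasome subunits Psmb8, Psmb9 and Psmb10, and the class I transactivator Nlrc5. All 10 passed the filter on low counts. Their counts ran from 457 to 60401 reads per mouse.

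Skin came from 12 female mice of the C57/BL6 strain, 3 in each of 4 groups. WT PBS and WT BLM mice were wild type and received subcutaneous PBS or bleomycin, a drug that produces skin fibrosis where it is injected. KO PBS and KO BLM mice were Thy1-knockout animals given the same injections. Thy-1 is a surface glycoprotein of fibroblasts, T cells and other cells, and the deletion was present in every cell of the animal. The methods give an age of 8 to 12 weeks, a bleomycin dose of 10 mg/kg per day and injections into the back for up to 14 days, whereas the labels give 21 days of treatment, and skin was taken on day 21. The study asked how loss of Thy-1 alters gene expression in fibrotic skin. Every mouse has its own number, and nothing in the labels names a litter or a sequencing batch. The methods describe the control mice as littermates, but which mice shared a litter is not given.

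Nearly all nucleated cells display peptides from their own proteins on class I molecules. The proteasome cuts the proteins, the TAP transporter carries the peptides into the endoplasmic reticulum, and tapasin helps to place them in the groove of a heavy chain paired with β2-microglobulin, for inspection by CD8 T cells and killer cells. Interferon-γ raises the expression of the whole pathway. It also replaces the catalytic subunits of the standard proteasome with those of the immunoproteasome, partly through the transactivator Nlrc5, which acts at an upstream element shared by class I promoters.

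In the GENCODE M21 annotation of GRCm38, 7 of the 10 genes lie on chromosome 17, in the MHC or at its edge. H2-K1 spans 33996017 to 34000347 on the minus strand and H2-D1 spans 35262730 to 35267499 on the plus strand. Psmb9 (34181987 to 34187764, minus strand), Tap1 (34187553 to 34197225), Psmb8 (34197721 to 34201454) and Tap2 (34203527 to 34216321) follow one another within a short stretch of this chromosome. In RefSeq, Tap1 and Psmb9 are transcribed away from each other from starts 226 bases apart. B2m is on chromosome 2 (122147686 to 122153083), and Psmb10 and Nlrc5 are on chromosome 8.

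Promoters of 8 of the 10 members were found in RefSeq (GRCm38.p6), those of Tap2 and Nlrc5 excepted. In the 250 bases upstream of the start, the letters TGACG (core of the X2 box) stood in 5 of these 8 promoters, against 17.9% of the 27025 promoters searched, and CCAAT (Y box) in 6 of 8, against 34.5%. The NF-kB letters (GGG, any 5 bases, CC) were in 5 of 8, against 45.4%. An interferon-stimulated response element core (GAAA, any 2 bases, GAAA) was found in B2m alone among the members and in 3.04% of promoters, and a GAS site (TTCNNNGAA) in Psmb8 alone and in 7.18%. Both strands were searched for exact matches, and the motifs may overlap. The windows of Psmb9 (chr17:34187331-34187580) and Tap1 (chr17:34187306-34187555) cover mostly the same stretch of chromosome 17. Their X2, Y box and NF-kB matches are the same sites, read from opposite strands and counted under both genes. The member counts for these motifs are therefore larger than the number of promoters with a separate match. Elements that differ from these letters were not counted. A promoter without a match may therefore still hold a variant of the element. Only the first RefSeq start listed for each gene was searched. The windows of Tapbp, Psmb8, Psmb9 and H2-D1 lie inside the GENCODE spans of these genes. Bases upstream of their outermost GENCODE starts were not searched. The 3 class I chains carried TGACG followed after 20 bases by ATTGG, the reverse complement of CCAAT. Only 25 of the 27025 promoters (0.0925%) held both at this distance. H2-M3, a nonclassical heavy chain, was the only one of 15 other class I chains in the table to do so. This spacing was searched after the promoters had been read, and a match describes letters, not binding. The windows upstream of H2-K1 (chr17:34000348-34000482, minus strand) and B2m (chr2:122147515-122147649, plus strand) are shown because they hold this pair together with the NF-kB or interferon letters, with matches to the 4 motifs other than GAS in capitals.

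H2-K1 window: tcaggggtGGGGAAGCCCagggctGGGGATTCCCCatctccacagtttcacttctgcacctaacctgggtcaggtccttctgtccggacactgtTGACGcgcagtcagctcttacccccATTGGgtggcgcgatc

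B2m window: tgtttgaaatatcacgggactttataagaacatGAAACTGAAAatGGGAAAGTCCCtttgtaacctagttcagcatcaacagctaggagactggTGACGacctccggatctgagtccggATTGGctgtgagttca

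The pair alone is shown for the 4 class I genes that share it, at chr17:34000359-34000388 (H2-K1, minus strand), chr17:35262993-35263022 (H2-D1), chr2:122147609-122147638 (B2m) and chr17:37270188-37270217 (H2-M3), with TGACG and ATTGG in capitals. The H2-D1 stretch lies upstream of the RefSeq start but inside a longer first exon of a GENCODE transcript.

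H2-K1 element: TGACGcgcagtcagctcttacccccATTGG

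H2-D1 element: TGACGcgctggcaggtctcactatcATTGG

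B2m element: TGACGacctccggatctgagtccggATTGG

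H2-M3 element: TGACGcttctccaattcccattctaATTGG

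H2-K1 and H2-D1 were identical at 13 of the 20 bases between the motifs, whereas B2m matched H2-K1 at 3 of them. The pair lies 41 to 12 bases before the RefSeq start in H2-K1 and 101 to 72 bases before it in H2-D1. Over upstream stretches of 135 bases aligned on the pair, H2-K1 and H2-D1 shared 122 (90.4%). This likeness extends to the transcripts, so reads may not be assigned to a single gene with certainty. In windows of 75 bases, 1.55% of H2-K1-201 and 6.90% of H2-D1-202 were also found in transcripts of other genes, among them H2-Q7 and H2-Q1, against 0% for B2m, Tap1, Tap2, Psmb8, Psmb9, Psmb10 and Nlrc5 and 0.99% for Tapbp.

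Before the groups are compared, 2 mice need to be named. Averaged over 19 hair shaft genes, log2 CPM lay between 9.76 and 10.38 for WT PBS, and replicate 136 of KO PBS (10.20) and replicate 141 of KO BLM (9.30) were close to that. The same mean was −0.20 and 2.62 in the other KO PBS mice (replicates 137 and 139), 5.48 and 6.48 in the other KO BLM mice (143 and 144) and at most 3.96 in WT BLM mice. Thy1 was counted at 104 to 150 CPM in WT PBS, 231 to 416 in WT BLM, 45.6 to 96.9 in KO PBS and 84.7 to 128 in KO BLM mice. The KO mice lay below the WT mice of the same treatment, but Thy1 was not at 0, and which part of the gene was deleted is not given in the sources used here. Markers of skin epidermis and fibroblasts were present in every group, with 0 of the listed genes at 0. Bulk RNA cannot tell fewer cells of a type from less RNA per cell.

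**Figure D1:**
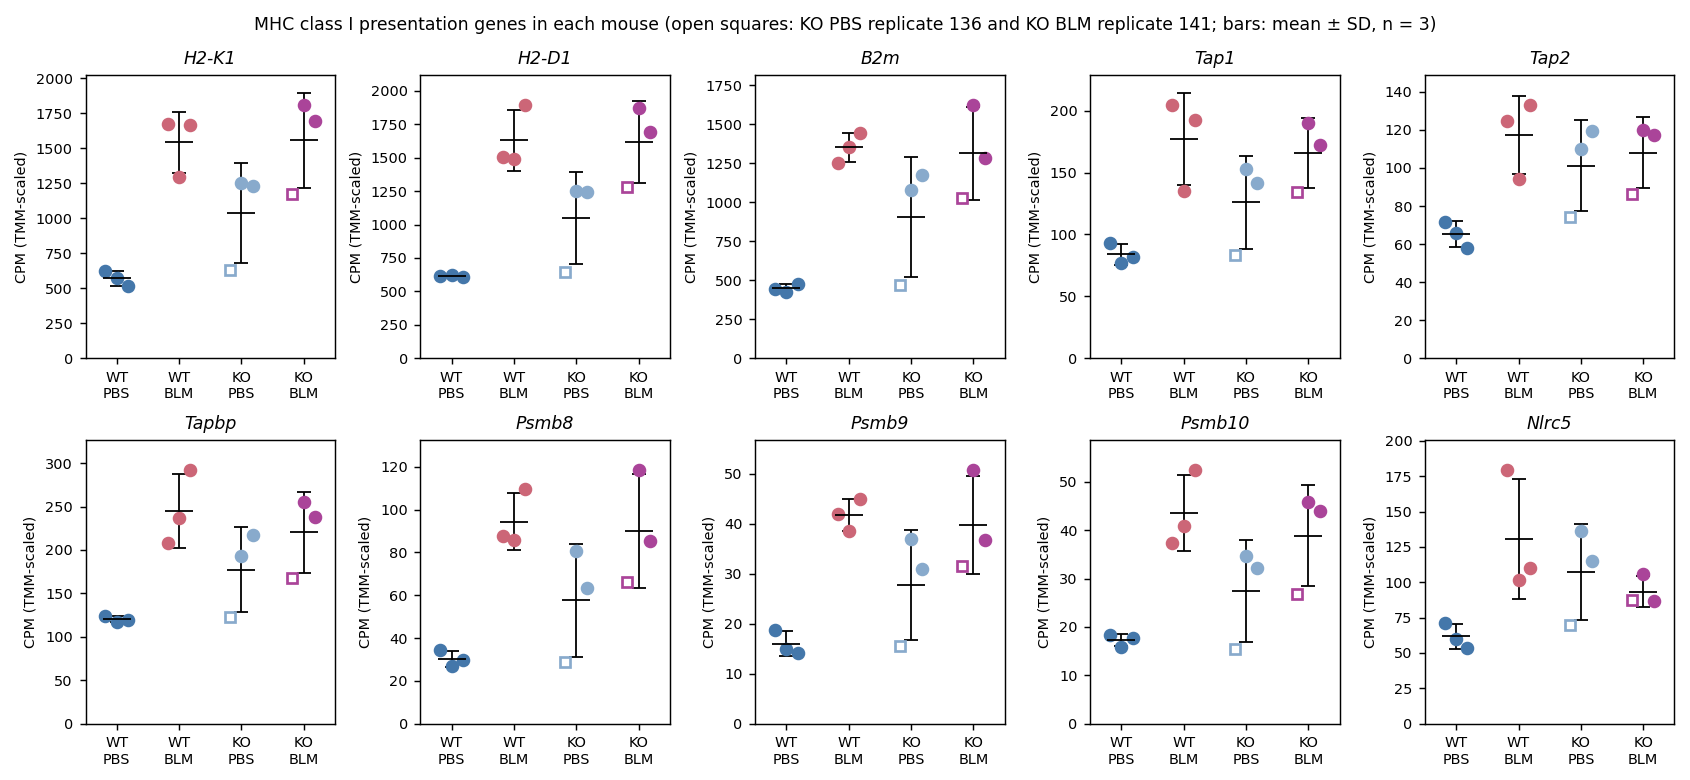
Expression of the 10 MHC class I presentation genes in each mouse. The y axis is CPM (TMM-scaled) from 0, the x axis gives the 4 groups, points are mice, and bars are mean ± SD (n = 3). In all 10 panels KO PBS replicate 136 (open square) is the lowest KO PBS mouse and lies near the WT PBS mice.

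In wild-type skin, all 10 genes rose with bleomycin. Their log2 fold changes ran from 0.85 (Tap2) to 1.64 (Psmb8) with a median of 1.36, against a median of 0.02 over all genes tested, and adjusted p ran from 0.00697 to 0.0162 (edgeR). Of the 18311 genes tested, 19.8% were called higher in this comparison. In each of the 10 genes the lowest WT BLM mouse lay above the highest WT PBS mouse, which was so for 28.3% of all genes tested.

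The class I chains form the molecule that reaches the cell surface. H2-K1, a classical heavy chain, was counted at 622, 576 and 513 CPM in WT PBS replicates 159, 160 and 161 and at 1673, 1293 and 1666 CPM in WT BLM replicates 145, 146 and 147. The lowest bleomycin-treated mouse was thus well clear of the highest control. Its mean was 570 ± 55 CPM in WT PBS and 1544 ± 217 in WT BLM (SD, n = 3), a log2 fold change of 1.44 (SE 0.28, adjusted p = 0.00777). H2-D1, the other classical heavy chain of this strain, stood at 619, 622 and 607 CPM in WT PBS and at 1506, 1490 and 1893 CPM in WT BLM mice, a log2 fold change of 1.40 (SE 0.27). B2m, the light chain common to all class I molecules, moved from 445, 428 and 478 CPM to 1255, 1358 and 1445 CPM, a log2 fold change of 1.59 (SE 0.31, adjusted p = 0.00777). The heavy chains kept nearly the same proportion to the light chain. The log2 count ratio of H2-K1 to B2m differed by −0.16 between WT BLM and WT PBS and by 0.01 between KO BLM and KO PBS. The mean of these differences was −0.07 (exact permutation test, p = 0.545, adjusted p = 0.633 over 12 ratio tests). For H2-D1 to B2m the mean difference was also −0.07 (exact permutation test, p = 0.42, adjusted p = 0.63).

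The transport and loading genes had smaller fold changes. Tap1 and Tap2 together form the peptide transporter. Tap1 was at 93.5, 76.6 and 81.4 CPM in WT PBS and at 205, 135 and 192 CPM in WT BLM mice, a log2 fold change of 1.08 (SE 0.24, adjusted p = 0.0113). Tap2 was at 71.8, 65.9 and 58.1 CPM and at 125, 94.2 and 133 CPM, a log2 fold change of 0.85 (SE 0.21, adjusted p = 0.0153). WT BLM replicate 146 was the lowest mouse of its group for both. Tapbp, which encodes tapasin, rose from 118 to 124 CPM in WT PBS to 208, 236 and 292 CPM in WT BLM mice, a log2 fold change of 1.03 (SE 0.23).

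The immunoproteasome subunits changed and their constitutive counterparts did not pass the test. Psmb8 was at 34.4, 26.7 and 29.8 CPM in WT PBS and at 87.6, 85.9 and 110 CPM in WT BLM mice. This log2 fold change of 1.64 (SE 0.33, adjusted p = 0.00859) was the largest of the 10 members. Psmb9 was at 14.2 to 18.8 CPM in WT PBS and at 38.5 to 44.9 CPM in WT BLM mice, and Psmb10 at 15.9 to 18.4 and 37.4 to 52.4 CPM, with log2 fold changes of 1.38 (SE 0.29) and 1.33 (SE 0.30). The subunits they replace, Psmb5, Psmb6 and Psmb7, had log2 fold changes of −0.05, −0.05 and −0.04 (adjusted p = 0.849, 0.816 and 0.842), with 95% intervals of −0.46 to 0.36, −0.37 to 0.27 and −0.31 to 0.24. None of the other 11 subunits of the 20S core was called in edgeR, with 0 at an unadjusted p under 0.05. A count ratio within one library does not depend on library scaling. Between WT PBS and WT BLM the ratio of Psmb8 to Psmb5 differed by 1.69 on the log2 scale, that of Psmb9 to Psmb6 by 1.44 and that of Psmb10 to Psmb7 by 1.35. The WT BLM mice were the higher for each, without overlap.

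**Figure D2:**
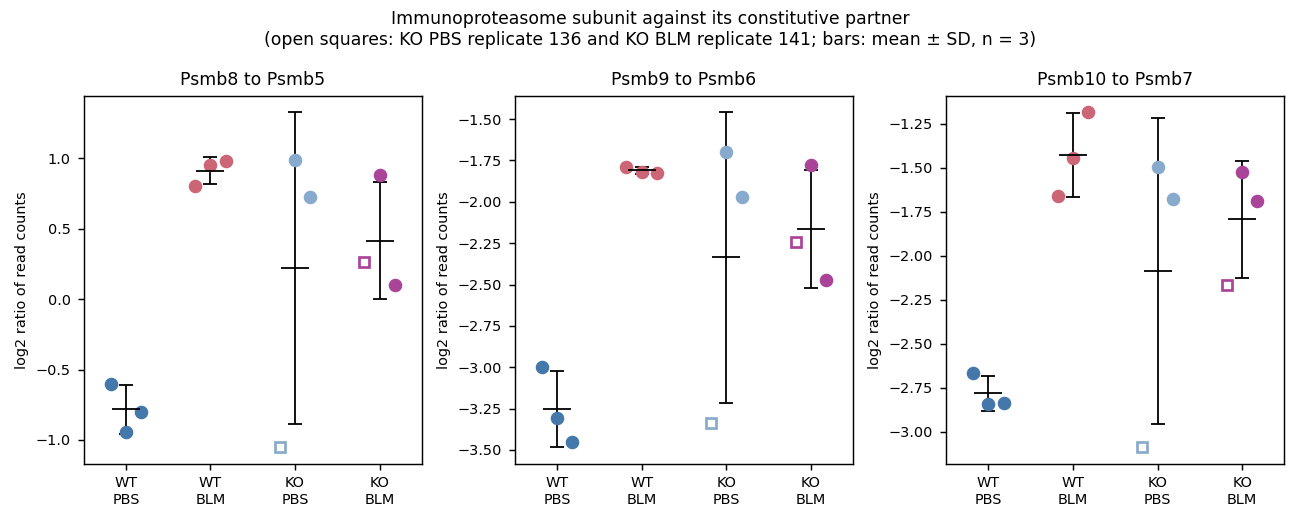
Log2 ratio of read counts of each immunoproteasome subunit to the constitutive subunit it replaces, by group. Points are mice, bars are mean ± SD (n = 3), and open squares are KO PBS replicate 136 and KO BLM replicate 141. The WT BLM mice lie above the WT PBS mice in each panel, while the KO groups overlap.

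In KO mice these ratios differed between bleomycin and PBS by 0.20, 0.17 and 0.29, and the groups overlapped. Both terms of the ratios had positive log2 fold changes there. These were 0.50 to 0.64 for Psmb8, Psmb9 and Psmb10 and 0.25 to 0.52 for Psmb5, Psmb6 and Psmb7, none of them called in edgeR. Averaged over both genotypes, the ratios differed between bleomycin and PBS by 0.95, 0.81 and 0.82, each with p = 0.045 (two-sided exact permutation test within genotype) and an adjusted p = 0.18 over 12 ratio tests, so these differences did not pass the correction. The smallest p that this design allows is 0.005. Averaged over both treatments, KO minus WT differences of the same ratios were 0.25, 0.28 and 0.17 (exact permutation test, p = 0.505, 0.395 and 0.58). The differences were 1.002, 0.9151 and 0.6956 under PBS but −0.4963, −0.3534 and −0.3645 under bleomycin. These opposite signs partly cancel in the mean, so the averaged test cannot decide whether the genotypes differ within either treatment. In KO BLM minus WT BLM, Psmb8, Psmb9 and Psmb10 had log2 fold changes of −0.16 to −0.07, and Psmb5, Psmb6 and Psmb7 of 0.18 to 0.41. In KO PBS minus WT PBS the ranges were 0.66 to 0.93 and −0.19 to −0.11. None of these was called in edgeR.

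Nlrc5, the transactivator of class I genes, was at 71.3, 60.1 and 53.6 CPM in WT PBS and at 179, 102 and 110 CPM in WT BLM mice, a log2 fold change of 1.08 (SE 0.27, adjusted p = 0.0162). WT BLM replicate 145 was the highest of all 12 mice. Without that mouse Nlrc5 did not pass (adjusted p = 0.0507), although the other 9 members did. Ciita, the class II counterpart of Nlrc5, rose as well, with a log2 fold change of 1.83 (SE 0.44, adjusted p = 0.0142). The ratio of Nlrc5 to Ciita did not differ detectably between bleomycin and PBS when both genotypes were averaged (mean difference −0.46, exact permutation test, p = 0.2, adjusted p = 0.6), with differences of −0.76 in WT and −0.17 in KO mice.

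The number of members called in WT mice depended on the controls. Without WT PBS replicate 160, 5 of the 10 passed (H2-K1, H2-D1, B2m, Psmb8 and Psmb9), while the median log2 fold change was 1.23. Without WT PBS replicate 161, 8 passed. The share of all genes called in either direction fell too, from 34.0% to 13.9% and 18.1%. In WT mice hair state and bleomycin cannot be told apart, because all WT PBS mice had high and all WT BLM mice low hair gene levels. With the hair list as a covariate, 0 of the 10 passed (16 of all genes, 0.0874%), and the median was 0.38.

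**Figure D3:**
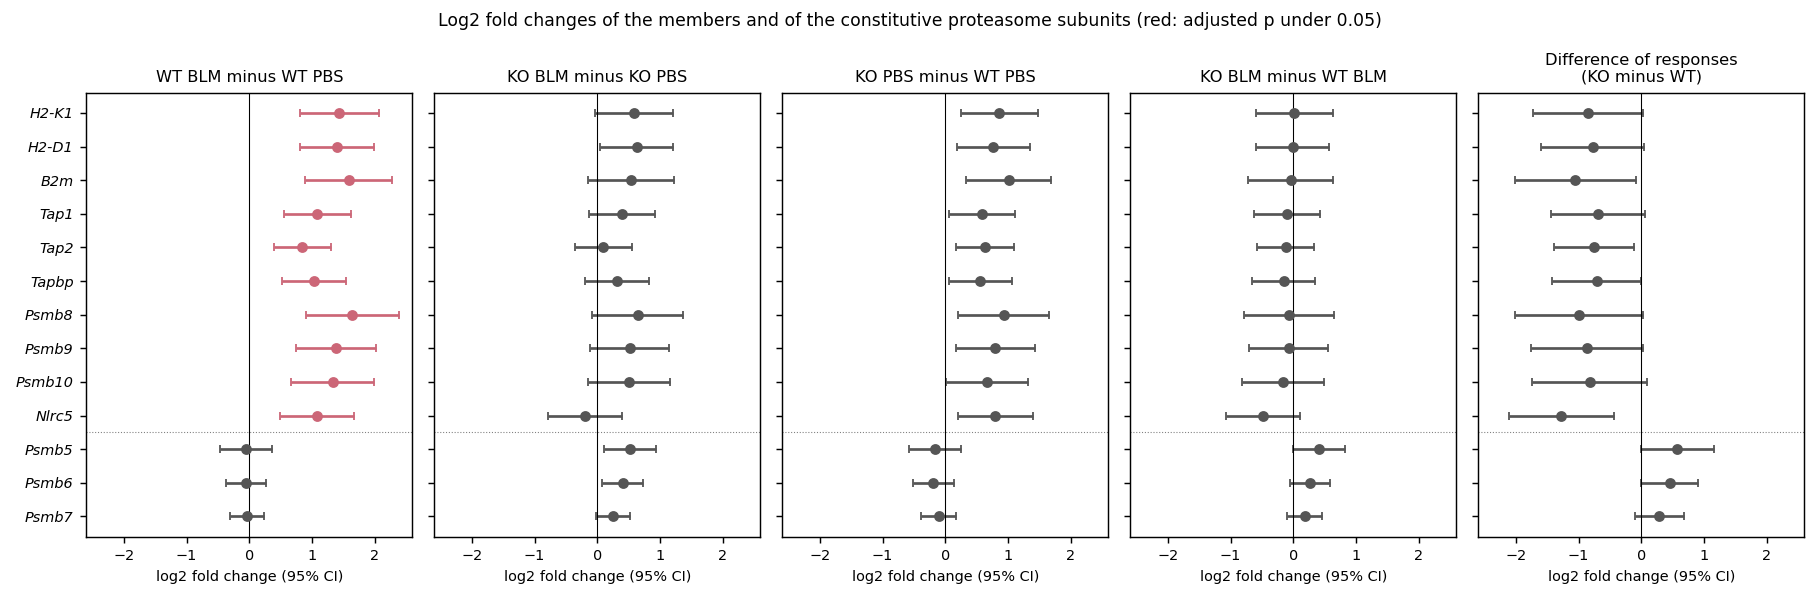
Log2 fold changes of the 10 members and of Psmb5, Psmb6 and Psmb7 in 5 comparisons. The x axis is the log2 fold change, points are edgeR estimates, bars are 95% confidence intervals and red marks an adjusted p under 0.05. Only the members in WT BLM minus WT PBS are red, and in the difference of responses all 10 members lie below 0.

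In Thy-1–KO mice none of the 10 genes passed the test between bleomycin and PBS, where 0.306% of all genes were called in either direction and 11.6% were higher at an unadjusted p under 0.05. H2-D1 alone among the members was below that level (adjusted p = 0.221 in edgeR). DESeq2 also called 0 of the 10. KO BLM mice did not overlap KO PBS mice for H2-D1 alone, against 10.8% of all genes that were higher without overlap. The log2 fold changes were above 0 for 9 of the 10, with a median of 0.51 and a range of −0.20 (Nlrc5) to 0.64 (Psmb8). H2-K1 was at 629, 1250 and 1234 CPM in KO PBS replicates 136, 137 and 139 and at 1173, 1810 and 1693 CPM in KO BLM replicates 141, 143 and 144. The 95% interval of its log2 fold change ran from −0.03 to 1.20. B2m was at 467, 1078 and 1172 CPM in KO PBS and at 1031, 1625 and 1286 CPM in KO BLM mice, and Psmb8 at 28.9, 80.9 and 63.2 CPM and at 66.1, 118 and 85.5 CPM. In each case replicate 136 was the lowest KO PBS mouse and replicate 141 the lowest KO BLM mouse, while replicate 137 exceeded replicate 141 in spite of having received no bleomycin. Replicate 136 was the lowest of its group for all 10 members and replicate 141 for 9. With the hair list as a covariate, 7 of the 10 passed in KO mice (all but Tap2, Tapbp and Nlrc5), as did 9.60% of all genes, with a median of 0.92.

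The comparison of the genotypes without bleomycin depended on KO PBS replicate 136. With all mice, none of the 10 genes passed between KO PBS and WT PBS (adjusted p from 0.204 to 0.245, edgeR), where 0.0655% of all genes were called. Every member had an unadjusted p under 0.05, against 12.6% of all genes that were higher at that level, and all 10 log2 fold changes were above 0, with a median of 0.78. DESeq2 called B2m alone among the members (log2 fold change 1.02, adjusted p = 0.0434) and 2.15% of the 34689 genes with a count, a wider set than in edgeR. The groups did not overlap for H2-K1, H2-D1 and Tap2, against 8.62% of all genes that were higher without overlap. Relative to the WT PBS mean, the members of replicate 136 lay between 0.89 and 1.14 times, with a median of 1.03, whereas replicates 137 and 139 had medians of 2.11 and 1.90 times. Without replicate 136, all 10 members were higher in KO PBS than in WT PBS mice, with log2 fold changes from 0.77 (Tapbp) to 1.32 (B2m) and adjusted p from 0.0016 to 0.0128. In that fit 36.7% of all genes were called. The 2 remaining KO PBS mice differ from the WT PBS mice in hair state too, and genotype and hair state cannot be told apart there.

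**Figure D4:**
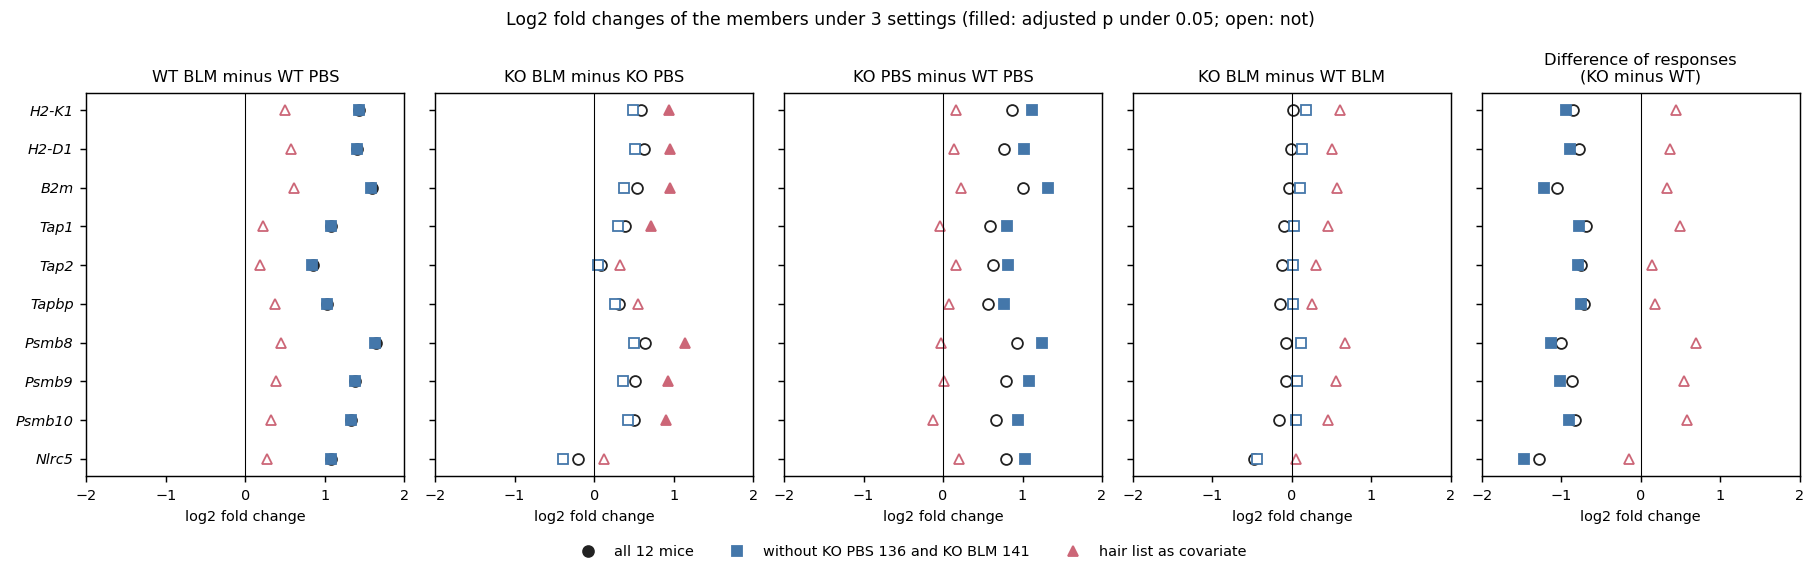
Log2 fold changes of the 10 members in 5 comparisons under 3 settings: all mice, without KO PBS replicate 136 and KO BLM replicate 141, and with the hair list as a covariate. Filled symbols have an adjusted p under 0.05. Leaving out both mice fills all 10 symbols in KO PBS minus WT PBS and in the difference of responses, and the covariate moves the WT response towards 0.

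Under bleomycin, none of the 10 members passed between KO BLM and WT BLM in edgeR or DESeq2 (0.0928% of all genes were called in edgeR), all groups overlapped, against 27.5% of all genes that did not overlap in either direction, and 0 members had an unadjusted p under 0.05, against 16.6% of all genes. For H2-K1 the log2 fold change was 0.01 with a 95% interval of −0.60 to 0.63, for B2m −0.04 (−0.72 to 0.63) and for Psmb8 −0.07 (−0.79 to 0.65). Nlrc5 had the lowest value, −0.48 (−1.07 to 0.11, adjusted p = 0.365). Its CPM was 87.8, 106 and 86.8 in KO BLM mice and at least 102 in WT BLM mice. Hair state separates these groups too. All 19 hair shaft genes were higher without overlap in KO BLM mice, with a median log2 fold change of 5.64. Genotype and hair state cannot be told apart here. With the hair list as a covariate, all 10 members were above 0, with a median of 0.48, and none passed (0.137% of all genes did).

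The difference between the bleomycin responses, KO minus WT, was tested directly. It was below 0 for all 10 members, from −0.69 (Tap1) to −1.28 (Nlrc5), and 4 had an unadjusted p under 0.05 (B2m, Tap2, Tapbp and Nlrc5), against 17.5% of all genes that were below 0 at that level. None passed (adjusted p from 0.0805 to 0.195, edgeR), and 0% of all genes did. DESeq2 called Nlrc5 alone among the members (−1.29, adjusted p = 0.0209) and 9.38% of the 34689 genes with a count. That set is wider than the one tested in edgeR, and 1 of 10 is not above the DESeq2 share by a clear margin. Without KO PBS replicate 136, all 10 passed (adjusted p from 0.00349 to 0.0218), as did 39.9% of all genes. With the hair list as a covariate the difference was above 0 for 9 of the 10, with a median of 0.41, and none passed. The comparisons of WT BLM and KO PBS with WT PBS share the 3 WT PBS mice, and the difference of responses uses all 4 groups.

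Levels of different genes can be compared only per length, and the order below the leading genes depended on which length was used. Per kilobase of the union of all annotated exons of a gene, B2m led in WT PBS mice at 523 ± 30 CPM per kb (SD, n = 3), followed by H2-D1 at 239 ± 3.1, H2-K1 at 194 ± 19 and Tapbp at 33.2 ± 0.87. The other 6 members lay between 4.37 ± 0.68 (Psmb9) and 17.3 ± 1.8 (Tap2). Per kilobase of the longest protein-coding transcript, a length chosen after seeing the data, B2m kept its value, H2-K1 (352 ± 34) stood above H2-D1 (293 ± 3.8), Tapbp was at 41.5 ± 1.1, and Nlrc5 (8.14 ± 1.2) rather than Psmb9 (11.8 ± 1.8) was the lowest. In every group and by both lengths, B2m stood highest, then the heavy chains, then Tapbp. Psmb8 stood below Psmb5 in WT PBS skin by both lengths, at 8.96 against 57.7 CPM per kb of exons and at 18.6 against 57.7 per kb of transcript. In WT BLM skin Psmb8 was at 27.9 against 55.7 for Psmb5 by exons but at 58.0 ± 8.2 against 55.7 ± 6.3 by transcript, so their order there was not settled. Psmb9 stayed below Psmb6 and Psmb10 below Psmb7 in both WT groups by both lengths.

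The members varied together across mice. Over the 12 mice, the log2 CPM of the 45 pairs of members had a median Pearson r of 0.957, from 0.723 (Tapbp and Nlrc5) to 0.994. With the group means removed, the median was 0.879 and the range 0.366 to 0.977. Nlrc5 was the member least like the rest, with a median r of 0.791 to the other 9. These correlations describe 12 libraries that share groups, hair state and scaling. The 5 genes most like the mean of the members were H2-T22 (r = 0.997), H2-T23 (0.987), Gpr18 (0.987), Parp10 (0.982) and H2-Q4 (0.977). Of these H2-T22, H2-T23 and H2-Q4 are nonclassical class I heavy chains, of which 26.1%, 13.1% and 7.91% of 75-base windows occur in other genes' transcripts.

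The other genes of the pathway were described from 9 lists holding 96 genes, of which 93 were in the file and 87 were tested. In WT mice 33 rose and 5 fell with bleomycin, against 19.8% and 14.1% of all genes, and none of the 87 passed in edgeR in the other comparisons. In KO BLM minus WT BLM 20 had an unadjusted p under 0.05, against 16.6% of all genes. The count was 27 in KO BLM minus KO PBS (11.6% of all genes were higher at that level) and 28 in KO PBS minus WT PBS (12.6% higher). It was 44 in the difference of responses (17.5% lower). The shares marked higher or lower cover a single direction, whereas the counts cover both. Among other class I and class I-like heavy chains, 12 of 18 tested rose and the rest were not called, with H2-T22 (log2 fold change 1.64), H2-M3 (1.64) and H2-Q4 (1.47) having the lowest adjusted p. Among 9 genes of the loading complex and peptide trimming, 2 rose, Erap1 (0.61, adjusted p = 0.0422) and Uggt1 (0.28, adjusted p = 0.0461), the aminopeptidase that trims peptides in the endoplasmic reticulum and a folding sensor. The chaperone Hspa5 was not called (−0.57, adjusted p = 0.155). Among 6 cytosolic peptidases, Lap3 fell by 3.03 (adjusted p = 0.0115), from 493 to 538 CPM in WT PBS to 56.1 to 72.7 CPM in WT BLM mice, and it was at 475 CPM in KO PBS replicate 136 and 373 CPM in KO BLM replicate 141 but at most 125 CPM in the other KO mice. Blmh, the bleomycin hydrolase, was not called (−0.14, adjusted p = 0.798). Among 9 proteasome activators and assembly factors, Psme3 fell by 0.62, while Psme2 (0.61, adjusted p = 0.0509) and Psme1 (0.56, adjusted p = 0.0685), subunits of the interferon-inducible activator, did not pass.

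Of 8 transcription factor subunits that Nlrc5 works with at class I promoters, 0 rose and 3 fell in WT mice, Creb1 by 0.46, Nfya by 0.37 and Rfxank by 0.46. Of 13 interferon and NF-kB regulators, 10 rose, including Irf9 (1.38, adjusted p = 0.00329), Stat2 (1.38) and Irf1 (1.11, adjusted p = 0.0196), transcription factors of the interferon response. Whether an interferon lay behind this, and of which type, was not tested. Ifng itself had 0 to 9 reads per mouse, too few to be tested. Of 10 tested genes listed as immune receptors linked to class I, 9 rose, with Lilrb4a (3.05), Klrk1 (2.45) and Klra8 (3.39) having the lowest adjusted p. Which of them bind class I, and which cells express them here, was not tested.

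Markers of other cells moved in the same comparison. The summed level of 5 genes of all leukocytes was 101 to 177 CPM in WT PBS, 584 to 886 in WT BLM, 94.6 to 456 in KO PBS and 388 to 542 in KO BLM mice, all 5 rose in WT mice, and none was at 0. The 15 interferon-stimulated genes summed to 104 to 165 CPM in WT PBS, 698 to 1007 in WT BLM, 107 to 448 in KO PBS and 460 to 594 in KO BLM mice, and all 15 rose in WT mice. Of 11 T cell and killer cell markers 10 rose, of 10 macrophage markers 8, of 10 skeletal muscle genes 9, of 7 fibroblast genes 4, of 6 endothelial genes 4, of 6 dendritic and Langerhans cell genes 2, of 9 epidermal genes 2, of 2 B cell genes 1 and of 6 adipocyte genes 0, against 19.8% of all genes. Of 19 hair genes 11 fell, against 14.1% of all genes. KO PBS replicate 136 had the lowest leukocyte level of all mice. Their part in the change of the class I genes was not tested.

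**Figure D5:**
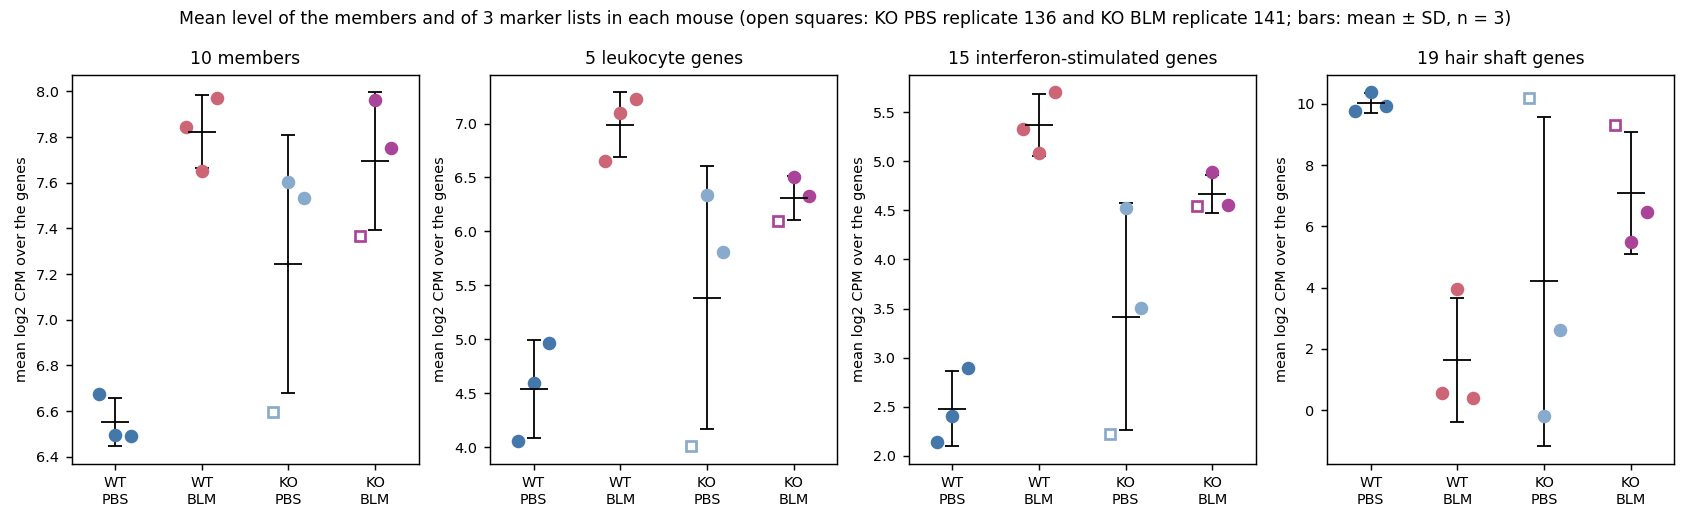
Mean log2 CPM of the 10 members, 5 leukocyte genes, 15 interferon-stimulated genes and 19 hair shaft genes in each mouse. Points are mice, bars are mean ± SD (n = 3), and each panel has its own y axis. KO PBS replicate 136 (open square) lies with the WT PBS mice in all 4 panels.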

How the data were processed

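Whole skin from 12 female mice was profiled by RNA-Seq. Per the methods, the authors made stranded mRNA libraries and sequenced read pairs. The deposited file holds raw read counts per gene symbol, not normalized, in 1 column per mouse. The submitters' processing notes name GRCm38.p6 and MultiQC 1.7. The aligner, the counting tool, the annotation and the handling of reads shared by several genes are not given in the sources used here.

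Counts were fitted in edgeR 4.0.16 (R 4.3.3) by the quasi-likelihood test, with TMM normalization, filterByExpr (at least 10 counts in enough mice and 15 in total, 18311 genes kept of 34689 with a count) and a model of 4 group means over all 12 mice. The 5 contrasts described in the report were tested with Benjamini-Hochberg adjustment over all genes tested and a threshold of 0.05. CPM values use TMM-scaled totals, and log2 CPM adds a prior count of 2. Ratios of 2 genes within a library were taken as log2 of counts with a pseudocount of 0.5 and tested by exact permutation within genotype or treatment. Positions came from GENCODE M21 (GRCm38), and promoters from RefSeq (GRCm38.p6). Alternatives were DESeq2 1.42.0, RLE and upper-quartile normalization, other filters, the compared groups alone, a hair-gene covariate, another pseudocount, another gene length and leaving out mice. The steps were tested on simulated data. Plots used matplotlib 3.10.9.

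The members, lists and tests were chosen with earlier results of these data known. Named are all 10 members, up to 3 genes of each pathway list with the lowest adjusted p in WT BLM against WT PBS, Psmb5, Psmb6, Psmb7, Blmh, Ifng, Irf1, Ciita, Thy1 and the 5 genes most like the members. One gene that this rule names is not reported here. Other genes are said to be chosen after their values were seen. Totals of 26473700 to 38890450 counts per mouse and at least 457 counts per member leave the spread between mice as the main limit on precision.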

Additional observations from a re-analysis of the deposited data

Results flagged for a closer look

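For Nlrc5, the KO mice lay on opposite sides of the WT mean under the 2 treatments. All 3 KO PBS mice (69.9, 136 and 115 CPM) were above the WT PBS mean of 61.7 CPM, and all 3 KO BLM mice (87.8, 106 and 86.8 CPM) were below the WT BLM mean of 130 CPM. The groups overlapped in both comparisons and neither passed (adjusted p = 0.205 and 0.365, edgeR). The WT BLM mean was raised by replicate 145 at 179 CPM, the other WT BLM mice being at 102 and 110 CPM, and leaving out 1 mouse moved KO BLM minus WT BLM between −0.63 and −0.18 on the log2 scale. The difference itself was tested: on the log2 scale it was −1.279 (SE 0.38, unadjusted p = 0.00652, adjusted p = 0.0805 in edgeR), which did not pass. Over the other settings its adjusted p ran from 0.00486 (without KO PBS replicate 136) to 0.933 (hair list as a covariate).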

How the results depend on the processing

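No paired analysis was possible because each mouse has its own number. Across the alternatives, 90 of 99 counts of members called stayed at 0 or within 1.5 times the reported count. The reported count was 0 in every comparison but WT BLM minus WT PBS, so most of these 90 are a 0 that stayed 0. Of 990 log2 fold changes of members, 869 kept their direction and their side of the threshold, 49 newly passed, 19 no longer passed and 53 changed sign, and 163 of 168 count ratios kept theirs. Leaving out 1 mouse at a time gave 5 to 10 members called for WT BLM minus WT PBS and 0 to 10 each for KO PBS minus WT PBS and for the difference of responses, with 10 only without KO PBS replicate 136. Leaving out KO PBS replicate 136 and KO BLM replicate 141 together also gave 10 for each of the latter. DESeq2 called 1 for KO PBS minus WT PBS (B2m, with 2.15% of the 34689 genes with a count). For the difference of responses it called 1 (Nlrc5, with 9.38% of the same genes). With the hair list as a covariate, 0 were called for WT BLM minus WT PBS and 7 for KO BLM minus KO PBS. The cause of these changes was not tested.

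Changes of sign fell mostly in KO BLM minus WT BLM, where values were near 0. There, H2-D1 was 0.0069 with upper-quartile normalization and 0.014 without a filter, and H2-K1 was −0.00533 with a mean of at least 1 CPM. Without replicates 136 and 141, H2-D1 was 0.13, B2m 0.11, Tap1 0.031, Tap2 0.019, Tapbp 0.012, Psmb8 0.11, Psmb9 0.0695 and Psmb10 0.046. Leaving out 1 mouse gave −0.11 to 0.22 for H2-K1, −0.13 to 0.16 for H2-D1, −0.22 to 0.14 for B2m, −0.26 to 0.064 for Tap1, −0.26 to 0.052 for Tap2, −0.27 to 0.044 for Tapbp, −0.32 to 0.14 for Psmb8, −0.29 to 0.10 for Psmb9 and −0.30 to 0.078 for Psmb10. In KO BLM minus KO PBS it gave −0.089 to 0.23 for Tap2 and −0.43 to 0.011 for Nlrc5, and −0.082 to 0.040 for the KO minus WT ratio of H2-K1 to B2m.

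With the hair list as a covariate, KO BLM minus WT BLM was 0.51 for H2-D1, 0.56 for B2m, 0.45 for Tap1, 0.30 for Tap2, 0.25 for Tapbp, 0.67 for Psmb8, 0.55 for Psmb9, 0.46 for Psmb10 and 0.047 for Nlrc5. The difference of responses was 0.44 for H2-K1, 0.37 for H2-D1, 0.33 for B2m, 0.50 for Tap1, 0.14 for Tap2, 0.18 for Tapbp, 0.69 for Psmb8, 0.54 for Psmb9 and 0.58 for Psmb10. KO PBS minus WT PBS was −0.044 for Tap1, −0.022 for Psmb8 and −0.12 for Psmb10, and KO BLM minus KO PBS was 0.13 for Nlrc5.

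With 3 mice per group the spread between mice, not depth, limits these comparisons. The covariate is measured from the same libraries and overlaps with treatment.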

Other observations

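For the 11 subunits of the 20S proteasome core outside the catalytic pairs, all 11 log2 fold changes in KO BLM minus KO PBS were above 0, with a median of 0.37 against −0.01 over all genes, and 9 had an unadjusted p under 0.05, where 11.6% of all genes were higher at that level. In KO BLM minus WT BLM all 11 were again above 0, with a median of 0.35, and 8 had an unadjusted p under 0.05, against 16.6% of all genes in either direction. None passed in either (lowest adjusted p = 0.155 and 0.263, edgeR). These comparisons share the KO BLM mice. In WT BLM minus WT PBS the median was −0.17.

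The 7 MHC class II genes, which present peptides to CD4 T cells, all rose in WT mice, against 19.8% of all genes. Their median log2 fold change was 1.97. Their summed level was 1191 to 1327 CPM in WT PBS, 3698 to 5736 in WT BLM, 1031 to 3669 in KO PBS and 2615 to 4512 in KO BLM mice. None passed in the other comparisons (edgeR). An unadjusted p under 0.05 was seen for 0 of them in KO BLM minus KO PBS, against 11.6% of all genes that were higher at that level. It was seen for 7 in KO PBS minus WT PBS, all higher, against 12.6%. In KO BLM minus WT BLM it was seen for 1, against 16.6% in either direction. In the difference of responses it was seen for 7, all below 0, against 17.5% that were below 0 at that level.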
